A study of Mus musculus with 80 samples.

Results

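Histone genes were followed through the RNA data of an aging series on mouse hematopoietic stem cells (HSCs). Members were taken by symbol, as every gene whose name starts with Hist1h to Hist4h, H1f, H2ac, H2bc, H3c, H4c, H2az or H3f. The rule found 72 members among the 21825 gene symbols of the bulk tables, and the same 72 among the 21901 genes of the single-cell matrices. By class, 61 were replication-dependent (5 H1, 16 H2A, 16 H2B, 12 H3 and 12 H4 genes), 8 were variant genes and 3 were testis genes. A mean of at least 1 FPKM (fragments scaled to transcript length and to the mapped reads of a library) in at least 1 bulk group was reached by 67 members: all 61 replication-dependent genes, 6 of the 8 variant genes (H1f0, H1f10, H2az1, H2az2, H3f3a and H3f3b) and none of the 3 testis genes. Just inside that limit were H3c10, with a highest group mean of 1.06 FPKM, and H3c14, with 1.26 FPKM. Just outside it were the testis genes H2ac1, with 0.642 FPKM, and H2bc1, with 0.513 FPKM.

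Histones package DNA: H2A, H2B, H3 and H4 form the nucleosome core, and H1 binds the linker DNA between cores. Replication-dependent histone genes are switched on in S phase, when new chromatin is built, and most of their mRNAs end in a stem-loop in place of a poly(A) tail, which SLBP binds. Variant genes such as H3f3a, H3f3b and H2az1 make ordinary polyadenylated mRNAs and are used outside S phase as well. Libraries primed with oligo-dT, as all of these were, therefore capture replication-dependent histone mRNA poorly, apart from molecules that carry a poly(A) tail, and their values here are not a measure of all histone mRNA in the cells.

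All samples came from C57BL/6 mice and, apart from the day 14 cells, from a gate for long-term HSCs: negative for lineage markers, CD34 and CD48, and positive for Kit, Sca-1 and CD150. The bulk libraries held 3 from young mice (2 to 3 months), 3 from old mice (22 to 24 months) with no CD150 selection, 12 from old HSCs of 3 mice sorted by CD150 level into G1 (lowest), G2, G3 and G4 (highest), and 3 each of old CD150low and CD150high HSCs recovered on day 4 after transplantation, with helper cells, into lethally irradiated young CD45.1 recipients. The single-cell libraries held 1 of young HSCs, 1 of old HSCs, and 1 each of LSK progenitor cells derived from old CD150low and CD150high HSCs on day 14 after transplantation. No label says how many mice were pooled in a library outside G1 to G4, so p-values measure the spread between libraries, and fewer cells of a type cannot be told apart from less RNA per cell in bulk. The sequencing depth of the bulk libraries, read from the steps between low FPKM values, was 0.662 to 1.17 times that of young library 1 for fresh HSCs and 0.518 to 0.599 times for day 4 HSCs.

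Each of the 10 HSC markers listed (among them Kit, Procr and Mecom) averaged at least 1 FPKM in all 8 bulk groups, with sums of 871 to 1515 FPKM in fresh and 802 to 1039 FPKM in day 4 HSCs. Of these 10, 7 were called lower in each day 4 comparison described below (limma, median log2 -1.29 for CD150low and -1.42 for CD150high). Of all genes tested there, 11.4% and 15.8% were called lower. Of 11 macrophage markers tested, 4 and 7 were called higher and 1 lower in each. Of all genes, 5.84% and 7.94% were called higher. Markers of red cells differed between groups: the 10 genes listed summed to 88.8 to 180 FPKM in G1, 42.5 to 54.5 in G4, 623 to 900 in day 4 CD150low HSCs and 740 to 1033 in day 4 CD150high HSCs. Old library 1 held 1091 FPKM of them against 96.2 and 162 in the other old libraries. Between young and unsorted old HSCs, neutrophil markers (10 listed) summed to 198 to 209 and 545 to 685 FPKM, with Ctsg at 0 in both groups. Mpo and Fcnb were also at 0 in old HSCs. Of the 3 neutrophil markers tested, 1 was called higher in old HSCs, and their median log2 difference was -0.29. Megakaryocyte markers (9 listed) summed to 444 to 669 and 224 to 249 FPKM, with 1 of 8 tested called higher and 2 lower. Of all genes, 1.92% were called higher there and 1.73% lower. Genes that the gate should leave out (8 listed) summed to 82.1 to 91.3 FPKM in young and 31.6 to 40.0 FPKM in old HSCs. These genes summed to 115 to 147 FPKM in day 4 CD150low HSCs and 28.7 to 69.4 in G1, with Cd3e and Cd8a at 0 in both groups. In day 4 CD150high HSCs they summed to 33.6 to 42.6 FPKM, and in G4 to 25.4 to 37.9. Only 2 of the 8 were tested in each day 4 comparison, and 1 was called higher in each. The part of these marker genes in the histone values was not tested.

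The gene models show which of these genes carry the stem-loop. In RefSeq (GRCm38.p6), 60 of the 61 replication-dependent genes were matched, 50 of them on chromosome 13 and 10 on chromosome 3; Hist1h2ap was not matched. A stem-loop of the histone type was found after the stop codon in 56 of the 60, at 21 to 58 bases (median 30.5), and in none of the 8 variant genes. The gene model ran less than 100 bases past the stem-loop in 52 of these 56, and further in H3c6 (423 bases along the genome), H2bc4, H2bc6 and Hist1h2bp. The 26 bases around the stem-loop are shown for the H1, H3 and H4 genes that the results below turn on, with the 2 stem arms and the loop in capitals.
H1f5 (chr13:21779832-21779857, minus strand): ccaaaGGCTCTTTTCAGAGCCaccta
H1f2 (chr13:23739507-23739532, plus strand): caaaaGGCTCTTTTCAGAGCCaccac
H3c6 (chr13:23561898-23561923, minus strand): aaaacGGCTCTTTTAAGAGCCacctc
H4c9 (chr13:22040961-22040986, minus strand): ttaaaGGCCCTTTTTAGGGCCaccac
H1f5 and H1f2 carry the same 16 stem-loop bases. On day 4 after transplantation H1f5 was called upward and H1f2 downward against G1 and G4, and H1f2 was not called against unsorted old HSCs. The part of the stem-loop was not tested.

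Promoters of the 4 genes were also read (RefSeq, 250 bases before to 50 after the start). H1f5 and H4c9 were among 4 genes called upward on day 4 in both comparisons described below. H1f2 and H3c6 were among 4 called downward in both. Promoters of the other genes called in both are not shown. Capitals mark CCAAT on either strand and TATAAA.
H1f5 (chr13:21780576-21780875, minus strand): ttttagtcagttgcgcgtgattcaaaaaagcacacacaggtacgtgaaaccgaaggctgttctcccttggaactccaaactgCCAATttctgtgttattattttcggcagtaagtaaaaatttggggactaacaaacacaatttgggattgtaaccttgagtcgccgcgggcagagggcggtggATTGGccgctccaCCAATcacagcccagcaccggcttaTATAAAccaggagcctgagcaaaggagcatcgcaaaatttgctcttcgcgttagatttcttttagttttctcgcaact
H1f2 (chr13:23738557-23738856, plus strand): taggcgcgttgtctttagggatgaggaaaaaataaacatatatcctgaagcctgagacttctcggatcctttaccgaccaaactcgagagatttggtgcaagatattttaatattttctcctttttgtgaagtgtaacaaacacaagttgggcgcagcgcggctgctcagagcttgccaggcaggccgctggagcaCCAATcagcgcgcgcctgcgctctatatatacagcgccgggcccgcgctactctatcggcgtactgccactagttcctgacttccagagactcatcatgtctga
H3c6 (chr13:23562336-23562635, minus strand): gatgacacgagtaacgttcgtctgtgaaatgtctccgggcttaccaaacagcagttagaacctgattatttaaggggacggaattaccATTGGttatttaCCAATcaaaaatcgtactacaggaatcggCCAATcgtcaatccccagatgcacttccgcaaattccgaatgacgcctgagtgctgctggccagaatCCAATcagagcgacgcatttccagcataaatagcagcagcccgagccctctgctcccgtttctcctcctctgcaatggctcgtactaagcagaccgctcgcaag
H4c9 (chr13:22041313-22041612, minus strand): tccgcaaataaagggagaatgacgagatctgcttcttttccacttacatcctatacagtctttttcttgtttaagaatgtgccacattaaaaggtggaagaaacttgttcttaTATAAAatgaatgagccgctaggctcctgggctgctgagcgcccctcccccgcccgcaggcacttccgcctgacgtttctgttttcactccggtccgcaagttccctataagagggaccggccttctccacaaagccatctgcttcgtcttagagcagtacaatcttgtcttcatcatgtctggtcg
CCAAT, counted on either strand, stood in 47 of the 55 replication-dependent promoters in the table (85.5%), against 37.4% of 32851 promoters of the same length. Among these 55, each of the 5 H1, 15 H2A, 14 H2B and 10 H3 promoters held it, and 3 of 11 H4 promoters did. For H3c14 and H3c15 it lay only after the start. TATAAA, on either strand, stood in 58.2% of the 55 against 13.6% of all promoters. The octamer ATGCAAAT, on either strand, stood in 20.0% against 1.74%, in 5 of 15 H2A and 6 of 14 H2B promoters and in none of the others. Windows of neighbouring H2A and H2B genes can overlap, so a site can count for both. The octamer of H2ac12 is that of H2bc12, and the octamer of H2ac8 is that of H2bc8. These shares are thus not over independent promoters.

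Coding sequences of these genes are close to one another. Within the H2A, H2B, H3 and H4 families the median identity between coding sequences of equal length was 94.7% to 97.2%. A copy with at least 99% identity was found for 6 of 15 H2A, 6 of 12 H3, 2 of 16 H2B and 2 of 12 H4 genes. Reads can be shared or split between such copies, so a value for a single gene is uncertain and the families were summed as well. Sums carry no test.

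H2A genes gave by far the largest summed level in the bulk libraries. In young HSCs the 3 libraries summed to 1594, 1297 and 2595 FPKM for H2A, against 123, 160 and 513 for H2B, 142, 125 and 162 for H4, 48.1, 37.9 and 105 for H1, and 40.9, 33.4 and 57.9 for H3. A few genes held most of each sum: Hist1h2ap and Hist1h2ao made up 52.8% of the H2A sum in young HSCs, H1f2 64.4% of the H1 sum and H3c6 55.5% of the H3 sum. These FPKM sums do not follow the equal numbers in which core histones enter a nucleosome.

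**Figure D1:**
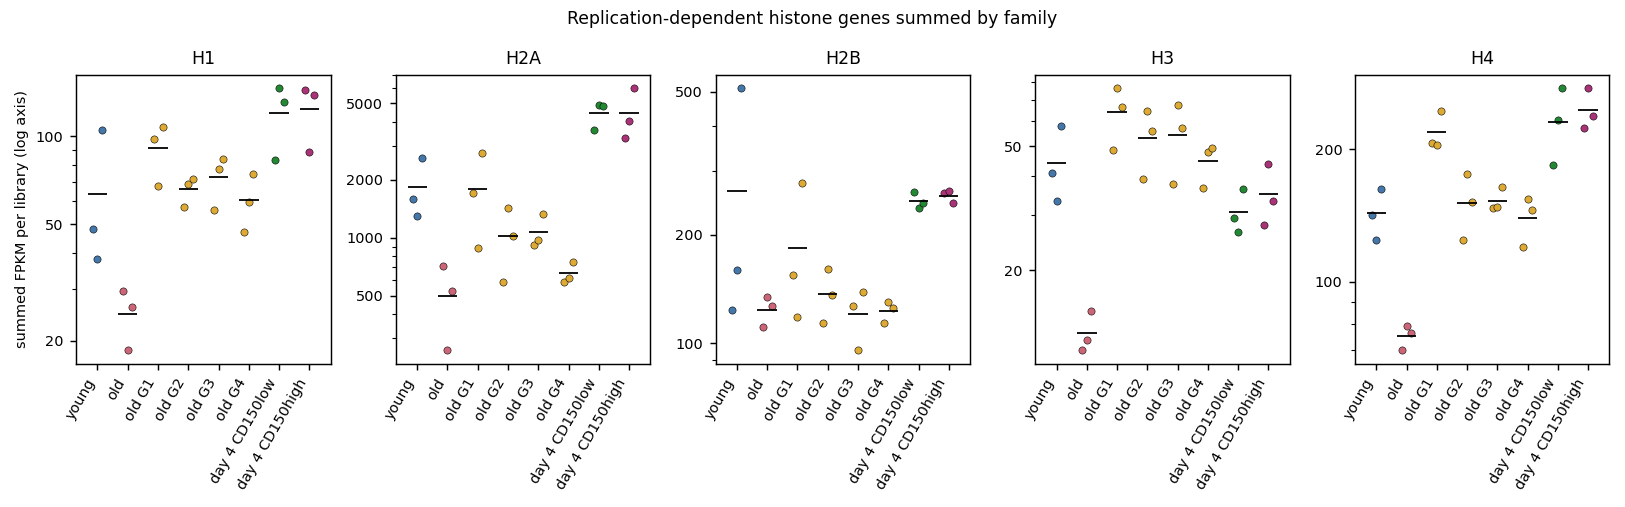
Summed FPKM of the replication-dependent genes of each family (log axis) for each of the 24 bulk libraries in 8 groups, with a bar at the group mean. H2A was highest on day 4, with 3301 to 6038 FPKM per library, while H3 was at 26.6 to 43.6 FPKM there, and the 3 unsorted old libraries were the lowest of all 24 for H1, H3 and H4.

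The first comparison asked which histone genes differ between old and young HSCs. Replication-dependent histone RNA was lower in the unsorted old libraries than in young HSCs, most of all in the H2A and H3 families. In H1, H3 and H4 sums the CD150-sorted old libraries did not share this low level, as given below. Of the 6 variant genes tested, 0 passed, though all 6 had log2 differences below 0. H2A sums were 714, 259 and 526 FPKM in the old libraries, a mean of 500 ± 229 (SD, n = 3) against 1829 ± 680 in young HSCs, or 0.273 of the young mean. H3 sums were 11.1, 11.9 and 14.8 FPKM in old HSCs, 0.286 of the young mean. The groups did not overlap for H1, H2A, H3 and H4 sums, but they did for H2B.

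Of the 61 replication-dependent genes, 54 passed the filter in this pair of groups, and 18 of them fell and 0 rose (limma, adjusted p under 0.05 and over 2-fold). That is 33.3% called lower, where 1.73% of all 11279 genes tested were called lower and 1.92% higher. By family, 1 of 5 H1, 8 of 15 H2A, 3 of 15 H2B, 3 of 8 H3 and 3 of 11 H4 genes fell. The median log2 fold change of the 54 was -1.16, and that of all genes tested was 0.01. H1f5, H3c11 and H3c2 passed the filter through the young group alone, so a fall was built into their selection. The other 15 had means of at least 1 FPKM in both groups. Of the 54 tested, 42 had such means in both groups and 12 in 1 group alone. The median and the 33.3% thus rest partly on genes whose direction the filter favours. With no filter beyond a value above 0 in 1 library, 1 of 61 replication-dependent genes was called, where 0.0583% of all 18858 genes were called lower (log2 differences stayed as they were, and the limma adjusted p became 0.0521 for H3c6, 0.147 for H1f5, 0.165 for H2ac15 and 0.279 for Hist1h2ao).

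H1f5, a linker histone gene, was measured at 9.30, 7.34 and 10.4 FPKM in young HSCs and at 2.58, 0 and 0.199 FPKM in old HSCs. All 3 old libraries were below all young libraries, and 1 held no H1f5 read. The log2 fold change was -2.61 ± 0.42 (SE, n = 3 per group, limma adjusted p = 0.00375), for a gene that passed the filter through the young group alone. H3c6, the highest H3 gene, was at 20.1, 20.0 and 33.3 FPKM in young and at 4.78, 5.10 and 5.77 FPKM in old HSCs. The old libraries lay close together and far below the young ones, with a log2 fold change of -2.0 ± 0.23 (limma adjusted p = 0.000506). H4c4, the highest H4 gene, was at 72.9, 52.3 and 55.9 FPKM in young and at 30.7, 27.3 and 30.1 FPKM in old HSCs, again with no overlap. Its log2 fold change of -1.0 ± 0.15 (limma adjusted p = 0.00267) sat at the fold limit and came under it without young library 1 (-0.86) or old library 2 (-0.95).

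Of the core H2A genes, Hist1h2an, Hist1h2ao, H2ac10 and H2ac15 fell most. Hist1h2ao was at 699, 182 and 409 FPKM in young and at 132, 39.1 and 15.0 FPKM in old HSCs, and its log2 fold change was -3.08 ± 0.62 (limma adjusted p = 0.0137). H2ac15 was at 122, 90.2 and 212 FPKM in young and at 10.3, 20.8 and 41.3 FPKM in old HSCs, and its log2 fold change was -2.61 ± 0.40 (limma adjusted p = 0.00299). Old libraries were below young libraries for both genes. Hist1h2an was at 141, 47.0 and 38.0 FPKM in young HSCs and below 6 FPKM in each old library, and H2ac10 ranged from 0.105 to 20.8 FPKM in old HSCs. Hist1h2ap was at 124, 574 and 913 FPKM in young and at 340, 88.6 and 245 FPKM in old HSCs. The groups overlapped, and its log2 difference of -1.04 ± 0.62 did not pass (limma adjusted p = 0.413). Without young library 1 it passed (log2 -1.89, limma adjusted p = 0.0484).

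Single libraries decided some of these calls. Of the 18 genes, 8 were called whichever library was left out (H1f5, H3c6, Hist1h2an, H2ac6, H2ac8, H2ac11, H2ac15 and H2ac20). Among these 8, the fall of H1f5 was built into its selection, as given above. In each such fit 10 to 15 were called, 10 of them without old library 2 and 15 without old library 1. Young library 3 stood apart in H2bc8, a core H2B gene, with 295 FPKM against 20.0 and 39.3 in the other young libraries and 8.92, 7.07 and 8.52 in old HSCs. H2bc8 fell by 2.79 on the log2 scale (SE 0.69, limma adjusted p = 0.0355), but missed the threshold without young library 2 (limma adjusted p = 0.063) and without old library 1, 2 or 3 (0.0688, 0.116 and 0.087). Young library 3 also held the highest sum of the young libraries in every family. Leaving it out moved the log2 ratio of the H2B sums from -1.10 to -0.19 and that of the H1 sums from -1.36 to -0.80. Those of the H2A, H3 and H4 sums moved from -1.87, -1.81 and -0.93 to -1.53, -1.56 and -0.82. H2ac10 missed the threshold without young library 1, 2 or 3 or without old library 3, with limma adjusted p from 0.0607 to 0.122, and Hist1h2ao without young library 1 (0.0676) or old library 2 (0.0549). H3c11 and H3c2 missed it without any 1 of the 6 libraries, H4c8 in 5 such fits, H2bc18 and Hist1h4m in 4 and H2bc3 in 3.

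In H1, H3 and H4 sums, the 12 libraries of CD150-sorted old HSCs did not share the low level of the 3 unsorted old libraries. H3 sums were 36.8 to 76.9 FPKM (median 52.6) in these 12 libraries, above each unsorted old library and across the range of young HSCs. H4 sums were 120 to 245 FPKM (median 153), against 69.8, 79.5 and 76.5 in unsorted old HSCs. For H2A and H2B the sorted and unsorted old libraries overlapped. H2A sums were 590 to 2780 FPKM (median 946) in sorted and 259 to 714 in unsorted old HSCs. H2B sums were 95.4 to 279 FPKM (median 128) and 111 to 134. H3c6 was at 14.1 to 36.5 FPKM and H1f2 at 25.9 to 49.1 FPKM in the sorted libraries. Both are old HSCs by label, and the sort, mice and preparation that separate them from the unsorted libraries cannot be told apart, so the low level of old HSCs above is that of 3 libraries.

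**Figure D2:**
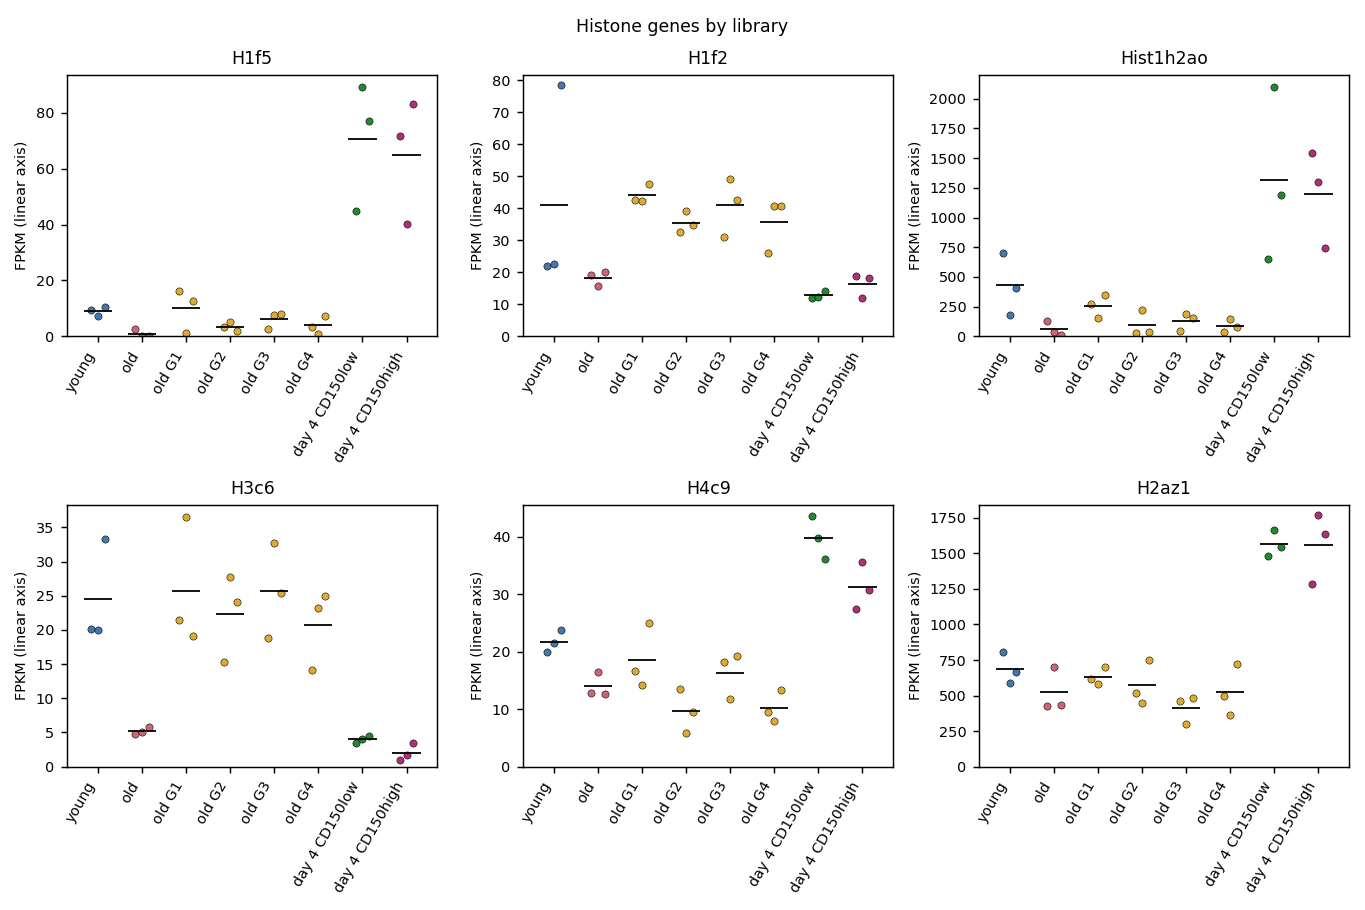
FPKM (linear axis from 0) of 6 histone genes in each of the 24 bulk libraries, with a bar at the group mean. H1f5, Hist1h2ao, H4c9 and H2az1 were highest in day 4 HSCs, H1f2 and H3c6 were low there, and unsorted old HSCs held 4.78 to 5.77 FPKM of H3c6 where G1 to G4 held 14.1 to 36.5.

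The second comparison asked whether histone genes follow the CD150 level of old HSCs. The mean sum was highest in G1 for every family, though few groups separated, and for H2B this rested on G1 library 3 (279 FPKM, against 154 and 118 in the other G1 libraries). H2A sums were 1706, 886 and 2776 FPKM in G1, 591 to 1433 in G2, 917 to 1326 in G3, and 590, 620 and 751 in G4. The 3 G4 libraries were below the 3 G1 libraries, with G4 at 0.365 of the G1 mean, and G2 and G3 overlapped G1 or G4 or both. H4 sums were 207, 204 and 245 FPKM in G1 and 120, 154 and 146 in G4, also apart, while H1, H2B and H3 sums overlapped between G1 and G4.

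No replication-dependent gene passed in G4 against G1 (0 of 59 tested, limma), where 0.129% of all 11673 genes did. At an unadjusted p under 0.05, 16 of the 59 were lower and 0 higher in G4, against 4.07% of all genes that were lower. A linear term over G1 to G4 called 0 of 59, where 0.386% of all genes were called, and at an unadjusted p under 0.05 it had 19 falling, against 5.8% of all genes. Without G1 library 2 the linear term called 1. Both are descriptions, since nothing passed after adjustment. Of the 6 variant genes none passed in either test. The summed level of 16 mitotic genes was 174 to 440 FPKM in G1 and 79.1 to 263 in G4, and its part in these values was not tested.

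Day 4 HSCs were then set against fresh old HSCs of the matching CD150 level. Both day 4 comparisons use G1 or G4 libraries of the comparison above, so these results are not independent of it, and the transplanted cells were also sequenced less deeply. In CD150low HSCs after transplantation, H2A sums were 3650, 4901 and 4853 FPKM, above the 886 to 2776 FPKM of G1, while H3 sums were 29.5, 26.6 and 36.5 FPKM, below the 48.7 to 76.9 FPKM of G1. Replication-dependent genes thus moved both ways on day 4: 4 of 59 rose and 5 fell (6.78% and 8.47%; limma), where 5.84% of all 11584 genes rose and 11.4% fell. These shares are close to the background, and the counts depended on a single G1 library, as given below. The median log2 fold change of the 59 was 0.33, against -0.17 over all genes tested. Of the 59, 4 passed the filter through 1 group alone.

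H1f5 rose most, from 16.2, 1.10 and 12.6 FPKM in G1 to 45.0, 89.3 and 77.2 FPKM on day 4. Each day 4 library was above each G1 library, with a log2 fold change of 3.12 ± 0.70 (limma adjusted p = 0.0148). H1f2, the highest of the replication-dependent H1 genes in fresh HSCs, fell from 42.6, 42.2 and 47.5 FPKM to 12.1, 12.4 and 14.01 FPKM, a log2 fold change of -1.71 ± 0.22 (limma adjusted p = 0.00198). The make-up of the H1 family differed accordingly: H1f2 made up 48.3% of the H1 sum in G1 and 10.6% on day 4, and H1f5 made up 10.9% and then 58.6%, while the H1 sums of the groups overlapped.

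Hist1h2ao rose from 270, 158 and 348 FPKM to 648, 2100 and 1191 FPKM (log2 2.25 ± 0.42, limma adjusted p = 0.0079). All day 4 libraries were higher, and Hist1h2ap (log2 1.42) and H4c9 (log2 1.09) rose as well. H3c6 fell from 21.5, 36.5 and 19.1 FPKM to 3.47, 4.04 and 4.47 FPKM (log2 -2.37 ± 0.31, limma adjusted p = 0.00224). The day 4 libraries lay together, below every G1 library. H2ac19 (log2 -2.06), H4c14 (log2 -1.48) and H3c7 (log2 -1.43) fell too, and H4c14 passed the filter through G1 alone.

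Of the 4 that rose, only Hist1h2ao was called in each fit that left out 1 library, and of the 5 that fell only H1f2 and H3c6 were. H1f5 missed the threshold without day 4 library 2 (limma adjusted p = 0.0844) or 3 (0.0533). H4c9 lost its call without any 1 library other than G1 library 3, Hist1h2ap without G1 library 1 or 2 or day 4 library 1 or 3, and H3c7 without G1 library 1 or 2 or day 4 library 1 or 2. H4c14 lost its call without G1 library 2 or day 4 library 3, and H2ac19 without day 4 library 2. G1 library 3 stood apart in its FPKM total, with 698602.8 against 567732.5 and 578598.6 in G1 libraries 1 and 2. Its 12 listed housekeeping genes summed to 22820 FPKM, against 13290 and 13360 in those libraries. The part of this difference in the calls was not tested. Leaving out G1 library 3 gave 21 calls, 16 higher and 5 lower, and leaving out day 4 library 2 gave 5 calls. The shares of all genes called in these fits are not given here, so these counts have no background beside them. The fresh group mattered more: with the 3 unsorted old libraries in place of G1, 37 of 57 genes rose and 2 fell, where 8.02% of all 11480 genes rose and 11.1% fell. In that fit H1f2 was no longer called (log2 -0.48, limma adjusted p = 0.0663) and neither was H3c6 (log2 -0.32, limma adjusted p = 0.298). H1f5, Hist1h2ao, Hist1h2ap and H4c9 were called upward against either fresh group.

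**Figure D3:**
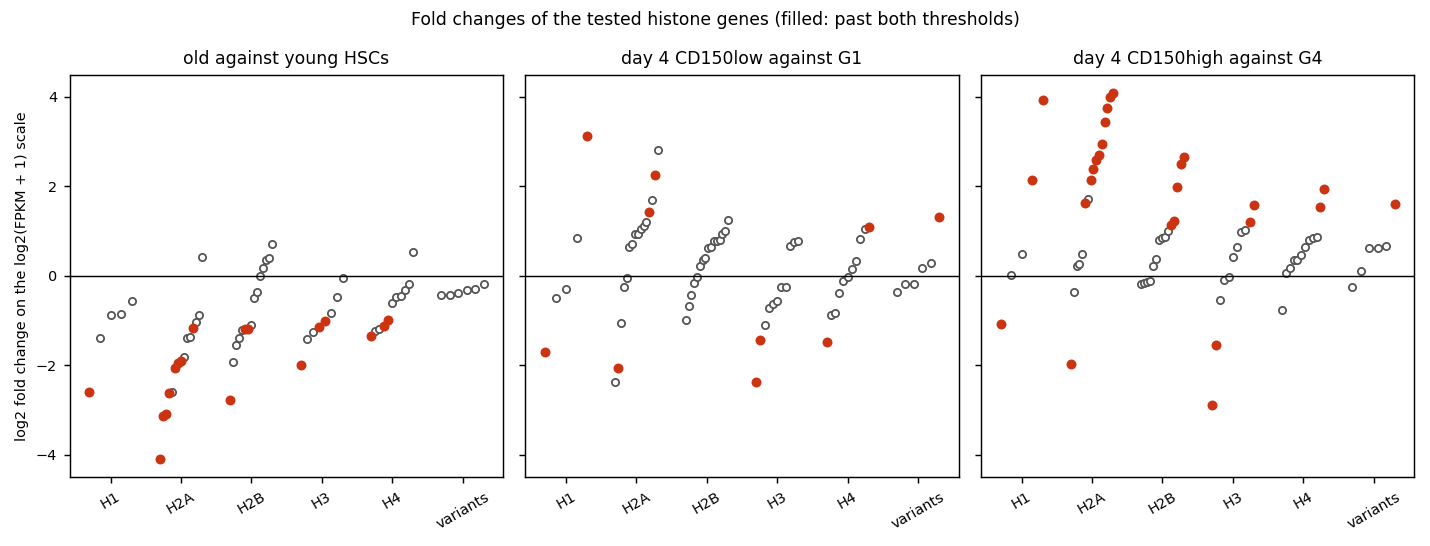
Log2 fold change (limma, log2(FPKM + 1) scale) of each tested replication-dependent gene by family and of the 6 tested variant genes in 3 comparisons, with filled points for genes past an adjusted p of 0.05 and a 2-fold change. In old against young HSCs all 18 filled points of the replication-dependent families lie below 0, and in day 4 CD150high HSCs 10 of 16 H2A genes are filled above 0.

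In CD150high HSCs after transplantation most family sums were above those of G4. H2A sums were 3301, 4036 and 6038 FPKM, 6.82 times the G4 mean, and every day 4 library was above every G4 library. H1, H2B and H4 sums were 2.06, 2.09 and 1.75 times the G4 mean with no overlap, while H3 sums of 28.01, 43.6 and 33.3 FPKM overlapped the 36.8 to 49.2 FPKM of G4. Of 59 replication-dependent genes tested, 21 rose (35.6%) and 4 fell (6.78%; limma), where 7.94% of all 11528 genes rose and 15.8% fell. H3c8, among the 21, and H3c7, among the 4, passed the filter through 1 group alone, and 20 and 3 had means of at least 1 FPKM in both groups. By family, 10 of 16 H2A, 5 of 15 H2B, 2 of 5 H1, 2 of 11 H3 and 2 of 12 H4 genes rose. The median log2 fold change of the 59 was 0.80, against -0.21 over all genes tested. Of the 59, 6 passed the filter through 1 group alone.

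H2ac7 rose most, from 7.96, 12.4 and 8.10 FPKM in G4 to 207, 163 and 157 FPKM (log2 4.09 ± 0.19, limma adjusted p = 3.13e-07). H2ac8, an H2A gene well captured in both assays, rose from 31.2, 67.2 and 44.9 FPKM to 277, 454 and 355 FPKM (log2 2.94 ± 0.25, limma adjusted p = 9.25e-06). Day 4 libraries were above G4 libraries for both genes without overlap. Hist1h2ao (log2 3.99), Hist1h2an (log2 3.75) and H2ac15 (log2 3.44) rose by similar amounts.

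H1f5 rose from 3.42, 0.912 and 7.29 FPKM to 71.8, 40.3 and 83.2 FPKM (log2 3.94 ± 0.46, limma adjusted p = 7.63e-05). H1f2 fell from 25.9, 40.8 and 40.7 FPKM to 18.7, 11.8 and 18.3 FPKM (log2 -1.09 ± 0.24, limma adjusted p = 0.00398). Against G4 and G1, H1f5 thus rose and H1f2 fell in CD150high as in CD150low HSCs. Against unsorted old HSCs the fall of H1f2 was called in neither (log2 -0.18 and -0.48, limma adjusted p = 0.575 and 0.0663). H3c6 fell from 14.1, 23.2 and 24.9 FPKM to 0.913, 1.74 and 3.45 FPKM (log2 -2.89 ± 0.36, limma adjusted p = 0.000107). H2ac19 and H3c7 fell by 1.97 and 1.54 on the log2 scale, and no library of these genes crossed between groups, but H3c7 passed the filter through G4 alone, so that its fall was built into its selection.

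Of the 21 risers 16 were called in each fit that left out 1 library, and of the 4 fallers H3c6 and H3c7 were. For H3c7 the fall was built into its selection through G4. H1f2 stayed at an adjusted p under 0.05 but came under the 2-fold limit without G4 library 2 or 3 or without day 4 library 2 (log2 -0.98, -0.98 and -0.89), and H2ac19 missed the threshold without G4 library 2 or 3 (limma adjusted p = 0.075 and 0.0894). Of the risers, Hist1h2ap and H4c12 lost their calls without G4 library 1 or 2, H2bc11 without G4 library 2, H3c8 without G4 library 3, and H2ac4 in 4 of 6 fits. With the unsorted old libraries in place of G4, 35 of 59 genes rose and 1, H3c6, fell (log2 -1.12, limma adjusted p = 0.0317), where 7.15% of all 11391 genes rose and 9.83% fell. H1f2 (log2 -0.18, limma adjusted p = 0.575), H3c7 (log2 -0.16, limma adjusted p = 0.764), H2ac19 (log2 -1.62, limma adjusted p = 0.0555) and the riser Hist1h2ap (log2 1.83, limma adjusted p = 0.0626) were then no longer called.

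All 4 genes that rose in CD150low HSCs were among the 21 that rose in CD150high HSCs (19.0% of the 21), and 4 genes, H1f2, H2ac19, H3c6 and H3c7, fell in both. In CD150high HSCs H3c7 passed the filter through G4 alone. The fresh libraries of both comparisons came from the same 3 mice. On day 4 the transplanted groups did not differ in any replication-dependent gene after adjustment (0 of 60, limma, where 0.0% of all 11077 genes were called). At an unadjusted p under 0.05, 5 genes were higher and 2 lower in CD150high HSCs, where 3.99% of all genes were higher. Leaving out day 4 CD150low library 1 or CD150high library 1 gave 1 call each. Family sums overlapped for all 5 families, with the H2A sums at a ratio of 0.998.

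Whether the responses to transplantation differed was tested as an interaction. No replication-dependent gene passed (0 of 60, limma, where 0.00841% of all 11894 genes did). At an unadjusted p under 0.05 the response of 13 genes was higher in CD150high HSCs and that of 0 was lower, beside 3.59% of all genes that were higher. A larger number of calls in CD150high than in CD150low HSCs is thus not shown to be a difference between them.

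Of the 6 variant genes tested, none was called in old HSCs and 1, H2az1, was called in each day 4 comparison. Of all genes, 1.73% were called lower in old HSCs, and 5.84% and 7.94% higher on day 4. With 6 genes, such counts do not set the variants apart from all genes. In old HSCs 3 of the 6 were lower at an unadjusted p under 0.05 (limma), where 19.1% of all genes had such a p in either direction. In young HSCs H3f3b averaged 1749 FPKM, H3f3a 1174, H2az1 687 and H2az2 503, and the linker variants H1f0 and H1f10 averaged 45.0 and 12.3. H3f3a and H3f3b both encode the replacement histone H3.3. H3f3b was at 1178, 1192 and 2878 FPKM in young HSCs and 1286, 1282 and 1310 in old HSCs, so that young library 3 alone stood high, and its log2 difference of -0.30 became 0.13 without that library. H3f3a was at 1202, 1169 and 1152 FPKM in young and 962, 1136 and 1021 in old HSCs. The old libraries were below the young ones, but the log2 difference of -0.18 ± 0.08 did not pass (limma adjusted p = 0.266). The log2 differences of the other 4 variant genes lay between -0.44 (H1f10) and -0.33 (H1f0), and 0 of 6 passed.

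H2az1, which encodes H2A.Z, was the 1 variant gene past both limits on day 4. It was at 616, 582 and 699 FPKM in G1 and at 1482, 1666 and 1548 FPKM in day 4 CD150low HSCs (log2 1.31 ± 0.17, limma adjusted p = 0.00226). In G4 it was at 494, 360 and 725 FPKM, and in day 4 CD150high HSCs at 1282, 1768 and 1637 FPKM (log2 1.61 ± 0.21, limma adjusted p = 0.00015). Day 4 libraries were above fresh libraries in both pairs. H2az2 and H3f3a were also higher in day 4 CD150high HSCs at an adjusted p under 0.05 (0.000255 and 0.000125, limma) but by less than 2-fold, with log2 differences of 0.63 and 0.62. In CD150low HSCs their log2 differences were 0.17 and 0.28, and neither passed. H1f0 (0.11 and -0.18), H1f10 (0.66 and -0.20) and H3f3b (-0.26 and -0.36) did not pass in CD150high or CD150low HSCs.

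Genes that switch on, process or carry histones were described from 2 lists. Of 10 genes for transcription and 3′ end processing of histone mRNA, 9 were tested in old against young HSCs and 0 were called. Slbp, the stem-loop binding protein, was at 218, 178 and 212 FPKM in young and 112, 117 and 138 FPKM in old HSCs, a log2 difference of -0.73 that was under the fold limit (limma adjusted p = 0.00414). Slbp then rose on day 4, to 257 to 261 FPKM in CD150low HSCs (log2 1.03, limma adjusted p = 0.00529) and to 254 to 297 FPKM in CD150high HSCs (log2 1.62, limma adjusted p = 1.38e-06). Lsm11, part of the U7 snRNP that cuts histone pre-mRNA, rose in CD150high HSCs (log2 1.0, limma adjusted p = 0.0272). Npat, the coactivator of histone genes, was not called in any of the 3 comparisons.

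Of 18 histone chaperones, 2 fell in old HSCs: Asf1b (log2 -1.22, limma adjusted p = 0.03), which carries H3 and H4, and Chaf1a (log2 -1.20, limma adjusted p = 0.0193), a subunit of CAF-1. On day 4, 7 rose in CD150low and 6 in CD150high HSCs, and none fell. Nasp, a chaperone of linker and core histones, was at 20.7 to 35.7 FPKM in G1 and 120 to 134 FPKM in day 4 CD150low HSCs (log2 2.23, limma adjusted p = 0.00115), and at 12.2 to 17.7 FPKM in G4 and 116 to 122 FPKM in day 4 CD150high HSCs (log2 2.91, limma adjusted p = 6.72e-07). Cell cycle genes were called in the same directions. Of 22 DNA replication genes, 8 fell in old HSCs and 17 and 21 rose on day 4 in CD150low and CD150high HSCs, and of 16 mitotic genes 14 fell in old HSCs and 15 and 16 rose on day 4. The summed mitotic level was 502 to 536 FPKM in young HSCs, 42.1 to 182 in unsorted old HSCs, and 1198 to 1849 on day 4. The part of these cells in cycle in the histone values was not tested in the bulk data.

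Single-cell libraries gave a second measurement, with 1 library per group and hence no test. After the study's filters, 1104 young, 2758 old, 2406 CD150low-derived and 1933 CD150high-derived cells remained, with a median of 14502, 13358, 19436 and 30651 UMIs. Values are CPM, the UMIs of a gene scaled to the same total in every library, with exact Poisson 95% intervals that cover counting error alone. Libraries shared between 1 and 12 barcodes. Scrublet marked 0.181% to 1.09% of cells as doublets, under 0.5% in the old library and both day 14 libraries, and doublets were left in.

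Replication-dependent genes summed to 2630 CPM (2600 to 2650) in young and 1110 CPM (1100 to 1120) in old HSCs, a ratio of 0.422. By family the H2A sum was 1170 CPM in young and 388 CPM in old HSCs, the H3 sum 192 and 74.1, the H1 sum 530 and 235, the H4 sum 514 and 294, and the H2B sum 223 and 117. Of 40 replication-dependent genes with at least 100 UMIs in the pair, all 40 had fewer CPM in old HSCs and 29 were more than 2-fold lower, with a median ratio of 0.383. Of all 11007 genes with that many UMIs, 63.6% were lower and 1.98% more than 2-fold lower, with a median ratio of 0.945. Variant genes summed to 4830 and 4580 CPM, a ratio of 0.948. Of 6 variant genes with at least 100 UMIs in the pair, 5 were lower and 1 higher in old HSCs, and 0 were more than 2-fold lower. Their median ratio was 0.877, with a range of 0.587 to 1.04. H1f5 was at 108 CPM (103 to 113) in young and 22.9 CPM (21.4 to 24.5) in old HSCs, a ratio of 0.212.

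On day 14, replication-dependent genes summed to 3040 CPM in CD150low-derived and 2970 CPM in CD150high-derived cells, a ratio of 0.975, and variant genes to 7130 and 7370 CPM. H1f5 was the replication-dependent gene with most UMIs, at 792 and 818 CPM, and H2az1 was at 2500 and 2850 CPM. Of 54 replication-dependent genes with at least 100 UMIs in this pair, 33 were lower and 21 higher in CD150high-derived cells, with a median ratio of 0.946, and 3 were more than 2-fold lower. Of all 11265 such genes, 41.0% were lower and 1.02% more than 2-fold lower. H2ac6 was 1 of these, at 107 CPM (104 to 110) and 42.9 CPM (41.3 to 44.5), a ratio of 0.401. H1f10 and H1f0 had ratios of 1.49 and 1.39. Megakaryocyte markers summed to 280 CPM in CD150low-derived and 711 CPM in CD150high-derived cells and genes that the HSC gate leaves out to 574 and 339 CPM, and their part was not tested. H2ac6 was named after its value was seen.

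The assays ranked members differently. Hist1h2ao averaged 430 FPKM in young bulk HSCs but had 26 UMIs there (1.52 CPM), and H2ac19 averaged 75.7 FPKM but had 2 UMIs, whereas Hist1h2ap, at 537 FPKM, had 5640 UMIs (329 CPM). Many H2A and H3 genes have close copies. How the counting assigned reads among copies was not tested, and levels of single H2A and H3 genes are uncertain for this reason.

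Cell cycle phases were called from Seurat's S and G2/M gene lists, which hold no member, on cells thinned to 9370 UMIs in the fresh pair and 8975 in the day 14 pair. Thinning left out 85 young, 275 old, 241 CD150low-derived and 17 CD150high-derived shallower cells. G1 held 59.3% of young and 70.2% of old HSCs, S held 37.2% and 28.1%, and G2M held 3.53% (36 cells) and 1.77% (44 cells). These calls rest on scores of the lists and do not measure DNA synthesis, so cells called S can include cells outside S phase. Without thinning G1 held 63.2% and 72.3%. On day 14, S held 38.5% and 42.5% and G2M 36.2% and 37.5% of CD150low-derived and CD150high-derived cells, in a sort of progenitors that is wider than the HSC gate. Phase calls read free RNA as well, and its part was not tested.

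Replication-dependent RNA was higher in S than in G1 and highest in G2M in every library. In young HSCs the sum was 1610 CPM in G1, 2540 in S and 13700 in G2M, and in old HSCs it was 804, 1200 and 8140 CPM. Old HSCs were lower within each called phase, at 0.498 of the young level in G1, 0.472 in S and 0.596 in G2M, the last over few cells. The ratio of the variant sums was 0.977, 0.976 and 1.07. Cell cycle genes also differed within called phases: the DNA replication list was at 0.793, 0.595 and 0.885 of the young level in G1, S and G2M, and the mitotic list at 0.541, 0.511 and 1.12, so that cells of 1 called phase were not matched in cycling between the libraries. Day 14 cells reached 4680 and 4170 CPM in G2M for CD150low-derived and CD150high-derived cells, under the level of fresh cells called G2M, and the numbers of genes and UMIs per cell differ between the pairs.

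H1f5 had the steepest profile of the genes shown. In young HSCs it was at 9.8, 142 and 820 CPM in G1, S and G2M, in old HSCs at 1.2, 37.2 and 421 CPM, and in CD150low-derived and CD150high-derived cells at 58.9, 671 and 1210 CPM and at 50.2, 688 and 1110 CPM. H2bc4 had another profile on day 14, with its highest level in G1: 174, 63.5 and 84.1 CPM in CD150low-derived and 237, 87.4 and 51 CPM in CD150high-derived cells. H1f2 was also lower in S than in G1 on day 14, at 0.623 and 0.695 of its G1 level in CD150low-derived and CD150high-derived cells, and in young HSCs, at 0.577. In fresh HSCs H2bc4 was highest in G2M, at 228 CPM in young and 113 CPM in old HSCs.

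**Figure D4:**
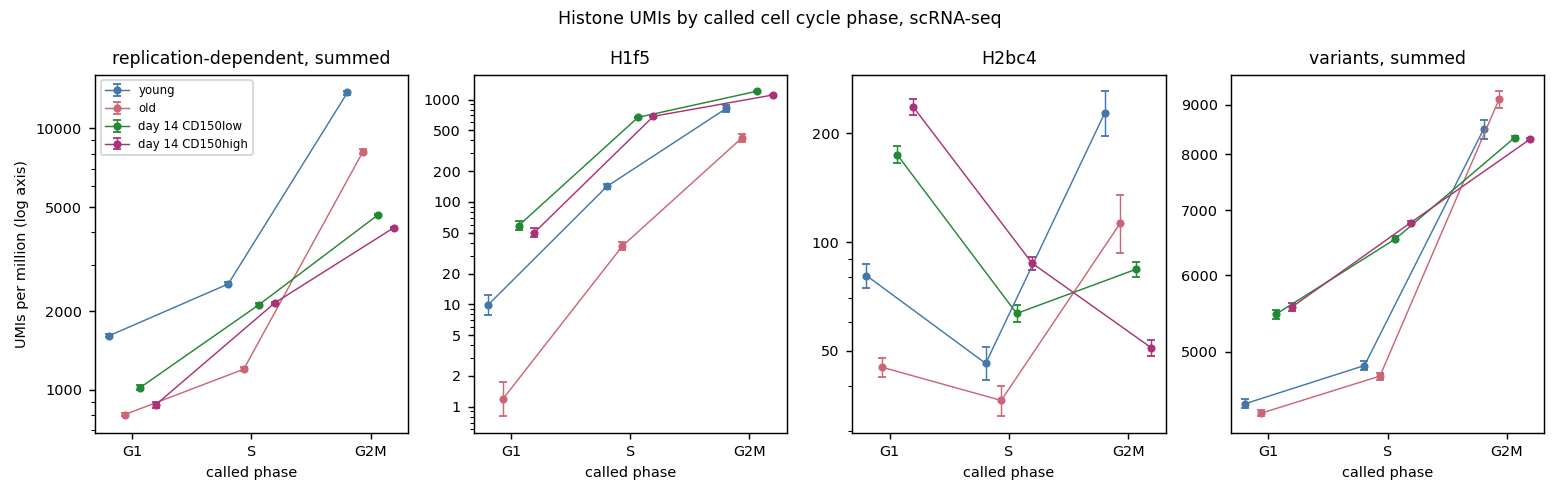
UMIs in CPM (log axis) of the replication-dependent sum, H1f5, H2bc4 and the variant sum in cells called G1, S or G2M in the 4 single-cell libraries, with exact Poisson 95% intervals for counting error. The replication-dependent sum reaches 13700 CPM in young G2M cells, old HSCs lie below young HSCs in each phase for that sum, and H2bc4 is highest in G1 on day 14.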

How the data were processed

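The authors made the bulk tables from SMART-Seq v4 libraries with Trim Galore, HISAT2, HTSeq (unstranded) and mm10, and deposited FPKM per gene; their notes also name Cufflinks, whose role is not given in the sources used here. FPKM are not counts, so genes averaging 1 FPKM or more in 1 group were tested with limma 3.58.1 on log2(FPKM + 1), with Benjamini-Hochberg adjustment over all genes tested. Fold changes are on that scale, which understates those of low genes. The authors' single-cell files are deposited UMI counts from Cell Ranger. Cells had at least 800 (fresh) or 2000 (day 14) genes and at most 5% mitochondrial UMIs. Scripts were tested on simulated data, in which 98% of changed genes were recovered for old against young HSCs (11161 genes), 90% for G4 against G1 (11630), 84.5% and 93.5% for day 4 CD150low and CD150high HSCs (11332 and 11226) and 79% for the interaction (11525). Changed genes were given a log2 change of 2 in either direction and were drawn from genes with a mean log2(FPKM + 1) above 3. Recovery was not tested for histone genes alone, for lower genes or over a range of fold changes. The shares above therefore do not measure how often a histone gene with a small difference or a low level would be called. Named genes were the tested variants, the highest gene of each family and at most 6 called, non-overlapping risers and fallers per comparison. Members and lists were chosen with earlier results of these data known. Same-numbered G1 to G4 libraries came from the same mouse (labels), and 14 of 18 pairs correlated best with their own number. Correlations of the 18 pairs ran from -0.454 to 0.508. G1 and G2 correlated at -0.454 for mouse 2 and -0.356 for mouse 3, where the largest correlations with another number were 0.398 and 0.64. The labels were followed there too, and the reason was not tested. Mouse or replicate numbers were tried as a block. Names of day 4 files differ in the day from the labels, which were followed. Samples of methylation, ATAC and CUT&RUN assays (52) were not analysed here.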

Additional observations from a re-analysis of the deposited data

Results flagged for a closer look

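H4c8, a core H4 gene, differed in opposite directions in the day 4 comparisons and was called in neither. It was at 19.2, 21.6 and 40.9 FPKM in G1 and at 10.3, 14.5 and 18.4 FPKM in day 4 CD150low HSCs, a log2 difference of -0.83, and at 10.9, 13.3 and 12.8 FPKM in G4 and 24.8, 21.3 and 23.7 FPKM in day 4 CD150high HSCs, a log2 difference of 0.87. Groups did not overlap in either pair. The interaction was 1.70 on the log2 scale and did not pass (limma adjusted p = 0.52).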

How the results depend on the processing

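Old against young HSCs called 18 replication-dependent genes, and 1 with no filter beyond a value above 0. Leaving out 1 library gave 10 to 15. Shares of all genes called are not given here for fits without 1 library or with the replicate block. Their counts therefore show how calls moved, not how histone genes compare with other genes. For day 4 CD150low HSCs the count was 9, and it was 3 with no filter, 39 with unsorted old HSCs as the fresh group and 5 to 21 with 1 library left out. Leaving out 1 library gave 0 to 1 for the linear CD150 term, 0 to 1 for CD150high against CD150low, and 21 to 29 for day 4 CD150high HSCs (25). Unsorted old HSCs as the fresh group gave 2 variant calls in CD150high HSCs. The cause was not tested. Scaling FPKM to an equal sum shifted the median of all genes by -0.161 (CD150low) and -0.218 (CD150high), and scaling by median ratios by 0.168 and 0.145. Relative to G4, the log2 ratio of H2B sums was 0.81 with equal sums and 1.23 with median ratios, and that of H4 sums 0.56 with equal sums. The log2 ratio of H2B sums in old against young HSCs ran from -1.44 to -0.19 over fits without 1 library.
Directions of these genes turned. In CD150high HSCs, H1f0 was -0.13 with equal sums and -0.12 to 0.31 with 1 library left out. In CD150low HSCs, H1f0 was 0.00666 with median ratios and 0.40 against unsorted old HSCs, H1f10 was -0.38 to 0.027 with 1 library left out and 0.42 against unsorted old HSCs, H2az2 was -0.020 with equal sums, H3c7 was 0.048 against unsorted old HSCs, and H4c4 was 0.16 with median ratios, -0.18 to 0.23 with 1 library left out (0.0202 and 0.000558 without G1 library 1 or 2) and 1.49 against unsorted old HSCs. In old against young HSCs, H2bc4 was -0.22 to 0.28 and H3f3b -0.52 to 0.13 with 1 library left out, both highest without young library 3.
With all barcodes the single-cell ratio of replication-dependent sums was 0.429 (old over young) and 0.984 (day 14). On unthinned cells it was 0.485 in S (old over young), and 0.733, 0.863 and 0.906 in G1, S and G2M on day 14, where thinned cells gave 0.861, 1.01 and 0.891, and that of variants was 1.12 in G2M (old over young) and 1.02 and 0.988 in S and G2M on day 14.
With the replicate block, 20, 10 and 27 replication-dependent genes were called in old against young, CD150low and CD150high HSCs, and 0 in G4 against G1, the linear term, CD150high against CD150low and the interaction; of the genes named, H3c7 in CD150low HSCs lost its call. Same-numbered libraries correlated at 0.0307 to 0.111 (old and young), -0.143 to 0.039 (CD150low) and -0.016 to 0.0155 (CD150high). For old and young, 3 of 3 pairs correlated best with their own number. G1 and G4 libraries of the same mouse correlated at -0.000623 to 0.101, so low values cannot show that libraries share only a number. Outside G1 to G4 the labels name no shared mouse. Day 4 libraries were the shallowest, and single-cell values rest on 1 library a group.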
